A study of Mus musculus with 9 samples.

Results

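The genes described here are the core of the canonical Wnt pathway inside the cell. They are β-catenin (Ctnnb1), its destruction complex (Apc and Axin1), its nuclear DNA-binding partners (Lef1, Tcf7 and Tcf7l2), the feedback inhibitors Axin2, Znrf3 and Nkd2, and the target gene Myc. They were chosen by name, as the 10 rows of the count table that carry these symbols, of 56748 genes in all. All 10 passed the filter on low counts, as did 15502 genes in all. The data are RNA sequencing of 9 libraries from chondrocytes, the cells of cartilage, isolated from the knee joints of wild-type (WT) mice and grown in culture medium with serum. There were 3 libraries in each of 3 groups, namely control cells, cells given the cytokine interleukin-1β (IL-1β), and cells given IL-1β with recombinant SFRP5. IL-1β drives inflammation and matrix breakdown in cartilage, and SFRP5 (secreted frizzled-related protein 5) binds Wnt ligands outside the cell. The labels give no dose, no length of treatment and no age of the mice, and no group received SFRP5 without IL-1β. Nothing in them says that libraries of a group came from separate mice or cultures, so p-values rest on the spread among these libraries alone, and that spread may be technical.

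In the canonical pathway, β-catenin that is not bound at cell junctions is held on a scaffold of AXIN and APC, phosphorylated by casein kinase 1 and GSK3, and degraded. A Wnt ligand at Frizzled and LRP receptors takes the scaffold apart, and β-catenin then enters the nucleus and binds TCF/LEF factors, which otherwise sit on target genes with repressors of the TLE (Groucho) family. Axin2, Znrf3 and the naked cuticle genes (Nkd1, Nkd2) are induced by the pathway in many tissues and restrain it, and Axin2 is the most widely used transcript readout of its activity. In cartilage, β-catenin signalling takes part in chondrocyte maturation and hypertrophy, and both too much and too little of it are known to harm articular cartilage. RNA levels report the transcripts of these genes. They do not measure the amount, the phosphorylation or the location of the β-catenin protein.

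The libraries held between 15795985 and 20688963 counts, so that 3 counts in a library correspond to between 0.135 and 0.195 CPM, the unit of counts scaled to library size. Levels here are CPM corrected for composition with TMM factors, each given as a group mean ± SD over 3 libraries. Changes are log2 ratios ± standard error (SE) from edgeR's quasi-likelihood test, called where the p adjusted over all tested genes was under 0.05. All 17 chondrocyte markers examined were expressed. Their summed level ranged over 118000 to 121000 CPM in control cells, over 27300 to 28600 after IL-1β, and over 32800 to 34200 where SFRP5 was added. Col2a1 made up most of each sum, at 74500, 15400 and 20800 CPM. Every marker had a lower mean after IL-1β than in control, but by unlike amounts. Chad was at 27.6, 23.6 and 25.9 CPM, and Sox5 at 56.4, 32.8 and 59.3 CPM. The lymphocyte markers Cd3e, Cd3d, Cd3g, Cd8a and Ms4a1 had no count in any library, whereas the T-cell kinase gene Lck had 1.03, 1.04 and 0.754 CPM in the control, IL-1β and IL-1β + SFRP5 groups and Cd247 had 26 counts over all 9 libraries. The 12 lymphocyte markers examined summed to between 0.937 and 1.65 CPM in every library, with Lck the largest part. T cells express Lef1 and Tcf7 strongly, and the part of such cells in the levels of these genes was not tested. Of 12 macrophage markers 6 passed the filter, and the sum of all 12 ranged over 17.5 to 18.6 CPM in control cells, 55.3 to 59.5 after IL-1β and 37.6 to 43.2 where SFRP5 was added. Cd14 made up most of that difference, with 1.25, 27.4 and 18.6 CPM, and Mrc1 had 1.62, 11.2 and 5.53 CPM, while Lyz2 was at 7.82, 7.83 and 7.05 CPM, Laptm5 at 3.24, 0.868 and 1.20 CPM, and the leukocyte gene Ptprc held 24 counts in all 9 libraries together. The 9 synovial fibroblast markers examined, of which 8 passed the filter, summed to 3280 to 3410 CPM in control, 2180 to 2220 with IL-1β and 3490 to 3690 with SFRP5 added. Col3a1 made up most of it, at 3060, 1230 and 2380 CPM. Prg4 (65.4, 475 and 845 CPM), Pdpn (34.3, 384 and 231 CPM) and Cd34 had higher means after IL-1β than in control, and the others lower ones. The part of such cells in these results was not tested. In bulk RNA, fewer cells of a type and less RNA per cell cannot be told apart.

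All 10 genes were called after IL-1β. Transcripts of the TCF/LEF factors Lef1, Tcf7 and Tcf7l2, of Ctnnb1 and of Znrf3 fell, whereas Apc, Axin1, Axin2, Nkd2 and Myc rose. The falls ran from 1.38-fold for Ctnnb1 to 19.3-fold for Lef1, and Myc rose 2.80-fold. Such changes were common in these cells. Of all tested genes 38.5% were called higher and 40.4% lower after IL-1β, and in 80% the libraries of both groups did not overlap, as was the case for 9 of the 10 genes here. The median absolute log2 change of the 10 genes was 1.23, and that of all tested genes was 0.754. When SFRP5 was present together with IL-1β, 4 of the 10 genes differed from IL-1β alone. Myc and Tcf7l2 were higher, and Ctnnb1 and Axin2 were lower. Against a background of 15.6% of tested genes called higher and 15.7% called lower, and of 40.8% with libraries that did not overlap, 5 of the 10 genes had groups that did not overlap. The median absolute log2 change was 0.281 for these genes and 0.196 for all tested genes.

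**Figure D1:**
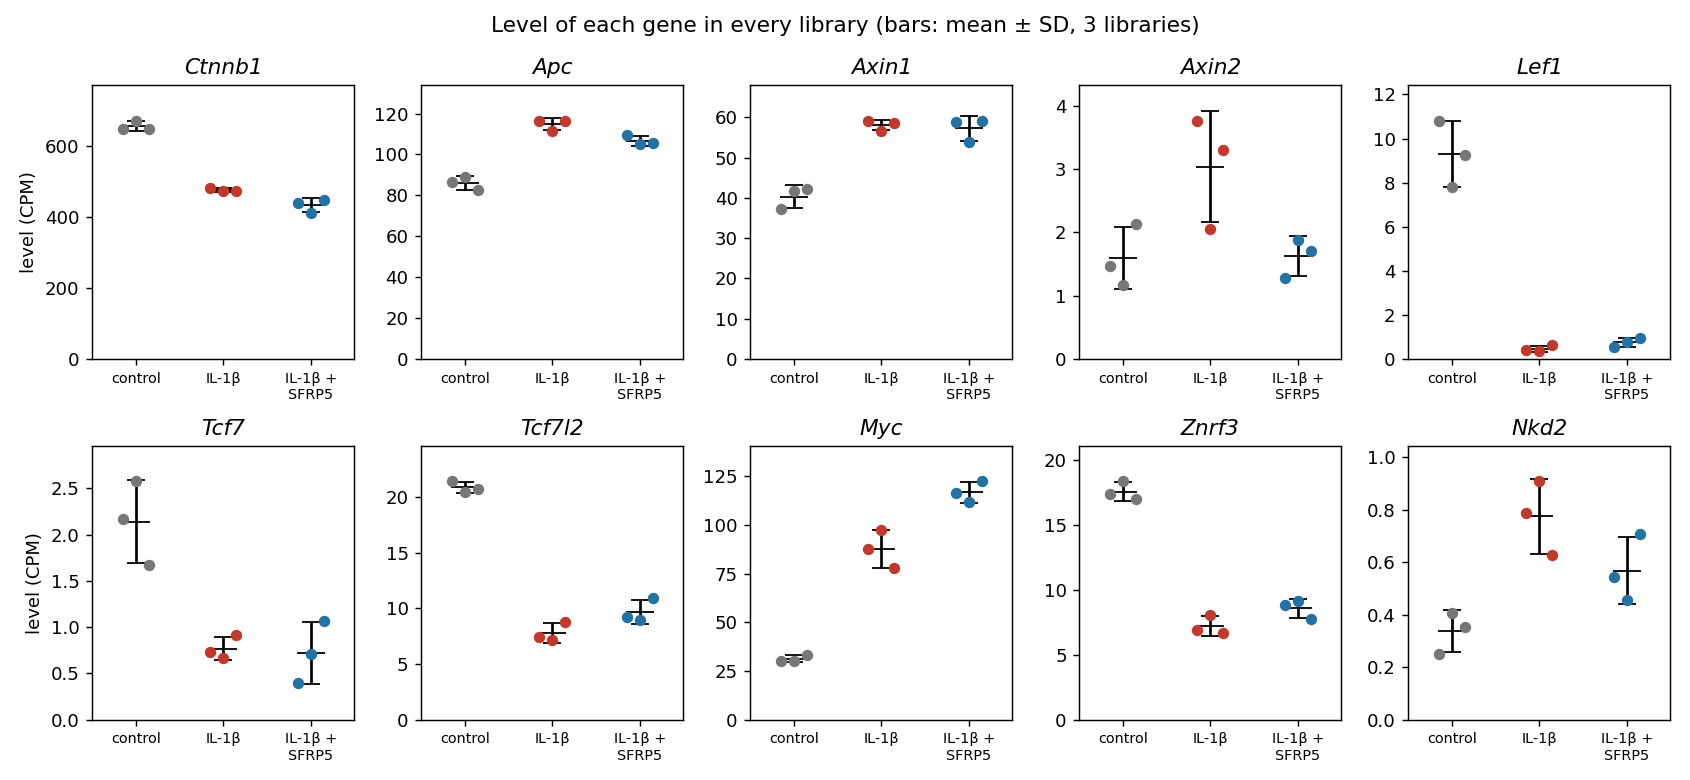
CPM of each of the 10 genes in each library (points) with the group mean and SD, on a separate linear axis per gene. The groups are control, IL-1β and IL-1β with SFRP5. Lef1, Tcf7, Tcf7l2 and Znrf3 sit low in every IL-1β library, Myc climbs from group to group, and Axin2 is high in the IL-1β group alone, with a lowest IL-1β library (2.06 CPM) just under the highest control library (2.13 CPM).

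Scaling matters for the split between rises and falls over the whole table. With library size alone in place of TMM factors, the median log2 change of all genes moved by −0.245 for IL-1β against control, and the share of higher genes among those called went from 48.8% to 37.7%. With upper-quartile factors, the median moved by −0.147. For SFRP5 added to IL-1β, the share of higher genes among those called went from 49.8% to 69.7% with library size alone. The direction of all 10 genes after IL-1β was the same under TMM, RLE and upper-quartile factors and library size alone.

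β-Catenin itself, the protein that carries the signal to the nucleus, was the most abundant of these transcripts per kilobase and fell in both treated groups. Ctnnb1 (ENSMUSG00000006932) stood at 649, 672 and 649 CPM in the control libraries, at 481, 473 and 474 CPM with IL-1β, and at 440.3, 411.6 and 448.2 CPM with IL-1β and SFRP5. The 3 groups did not overlap, with control highest and IL-1β + SFRP5 lowest. IL-1β lowered the transcript by a log2 change of −0.46 ± 0.04 (adjusted p = 2.22e-11). SFRP5 added a smaller step down, −0.14 ± 0.04 against IL-1β alone (adjusted p = 0.00664), with a 95% interval from −0.21 to −0.06. That step was −0.05 with an adjusted p of 0.284 under library size alone, and −0.10 with an adjusted p of 0.0610 without IL-1β + SFRP5 replicate 2.

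The scaffold genes went the other way after IL-1β. Apc (ENSMUSG00000005871), the large scaffold that is lost in many colon tumours, had 86.8, 88.9 and 82.4 CPM in control, 116.5, 111.6 and 116.4 CPM after IL-1β, and 109.7, 105.1 and 105.4 CPM with SFRP5 added. All IL-1β libraries lay above all control libraries, and the libraries with SFRP5 lay between the other groups. The rise after IL-1β was 0.42 ± 0.05 (adjusted p = 8.25e-09). The difference between the treated groups, −0.11 ± 0.05, was not called (adjusted p = 0.0842), with an interval from −0.20 to −0.01. Axin1 (ENSMUSG00000024182), the constitutive scaffold on which the complex is built, was at 37.2, 41.7 and 42.2 CPM in control, 59.1, 56.6 and 58.7 CPM after IL-1β, and 58.8, 53.8 and 59.2 CPM with SFRP5 added. Both treated groups lay above control and overlapped each other. The IL-1β change was 0.53 ± 0.06 (adjusted p = 6.96e-09). SFRP5 made a difference of −0.02 ± 0.06 (adjusted p = 0.831), and the interval from −0.14 to 0.10 leaves room for a small change in either direction.

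Other genes listed around the destruction complex, with the Dishevelled family, which links the receptors to it, mostly shared the direction of Apc and Axin1 after IL-1β. The list is wider than the complex itself, since it also holds genes such as Tnks2, which promotes AXIN turnover and rose as well. The count of rises is therefore not a count of parts of the complex. Of 17 such genes 11 rose, 3 fell and 3 were not called, and their median log2 change was 0.576 beside −0.0325 for all tested genes, of which 38.5% were called higher and 40.4% lower. With library size alone the count was 9 higher and 6 lower, and with upper-quartile factors 10 higher and 4 lower. Gsk3b, the kinase that marks β-catenin for degradation, rose from 128 ± 3.72 to 266 ± 7.10 CPM, a log2 change of 1.05 ± 0.05 (adjusted p = 6.82e-17). Csnk1e, a casein kinase 1, rose from 25.7 ± 0.382 to 63.0 ± 3.27 CPM, and the ubiquitin ligase gene Siah2 from 16.7 ± 1.13 to 43.8 ± 4.69 CPM. The genes that fell were Apc2, a relative of Apc, from 5.62 ± 0.567 to 1.92 ± 0.431 CPM, Amer1, a membrane partner of APC, from 14.6 ± 0.559 to 6.11 ± 0.349 CPM, and Dvl3, a Dishevelled gene, from 51.4 ± 1.54 to 44.9 ± 4.49 CPM. With SFRP5 present, 1 gene of the 17 was higher than with IL-1β alone, 4 were lower and 12 were not called, and the median was −0.0646 beside 0.0127 for all tested genes, of which 15.6% were higher and 15.7% lower. The 4 lower genes were Gsk3b at 231 ± 14.6 CPM (log2 change −0.20 ± 0.04, adjusted p = 0.000930), Tnks2 (−0.25 ± 0.04), a tankyrase that promotes AXIN turnover, Csnk1a1 (−0.18 ± 0.03) and the ubiquitin ligase gene Fbxw11 (−0.14). The higher gene was Dvl2 (0.19 ± 0.07, adjusted p = 0.0298). Library size alone gave 1 higher and 3 lower genes in this comparison, and a list median of the opposite sign, 0.0166.

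The TCF/LEF factors fell with IL-1β, and the change of Lef1 was the largest among the 10 genes. Lef1 (ENSMUSG00000027985), which in many tissues is both a partner of β-catenin and a target of the pathway, had 214, 173 and 182 counts in the control libraries (10.8, 7.81 and 9.24 CPM). It had 7, 6 and 11 counts with IL-1β (0.425, 0.363 and 0.626 CPM) and 11, 12 and 16 counts with SFRP5 added (0.542, 0.781 and 0.944 CPM). Every treated library was far below every control library, and the treated groups overlapped. The log2 change after IL-1β was −4.27 ± 0.26 (adjusted p = 6.14e-14), 19.3-fold lower. With SFRP5 it stayed 12.4-fold below control, and the difference from IL-1β alone, 0.64 ± 0.40, was not called (adjusted p = 0.238). At these few counts the interval of that difference, from −0.17 to 1.46, includes both no change and more than a doubling. Markers of osteoblasts, a bone cell type that could accompany these cells, also had lower levels after IL-1β. The 9 examined, of which 6 passed the filter and Sost had no count, summed to 5270 to 5440 CPM in control, 1840 to 1950 with IL-1β and 2290 to 2490 with SFRP5 added, nearly all of it Col1a1. Sp7 was at 11.6, 0.117 and 0.160 CPM, Ibsp at 8.55, 0.250 and 0.169 CPM, and Alpl at 45.7, 2.73 and 3.40 CPM. Some of these genes are also expressed by maturing chondrocytes, and their part in the Lef1 result was not tested.

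Tcf7 (ENSMUSG00000000782), which encodes TCF1, was a low transcript throughout. It had 43, 57 and 33 counts in control (2.17, 2.57 and 1.68 CPM), 12, 11 and 16 with IL-1β (0.729, 0.666 and 0.911 CPM), and 8, 11 and 18 with SFRP5 added (0.394, 0.716 and 1.06 CPM). The control libraries lay above all others, and the treated groups overlapped. The change after IL-1β was −1.47 ± 0.35 (adjusted p = 0.000511). The SFRP5 difference of −0.12 ± 0.42 was not called (adjusted p = 0.868), and its interval from −0.97 to 0.74 is wide. Tcf7l2 (ENSMUSG00000024985), which encodes TCF4, the main partner of β-catenin in the gut, had 21.4, 20.5 and 20.8 CPM in control, 7.41, 7.21 and 8.82 CPM after IL-1β, and 9.22, 8.98 and 10.9 CPM with SFRP5 added. Here all 3 groups were separate, with control highest and IL-1β lowest. The log2 change after IL-1β was −1.42 ± 0.11 (adjusted p = 4.30e-12), 2.67-fold lower. SFRP5 gave a difference of 0.31 ± 0.12 (adjusted p = 0.0454), 1.24-fold higher than IL-1β alone and still below control (−1.11 ± 0.10, adjusted p = 3.00e-10). That call sat at the threshold. It was lost with RLE factors (adjusted p = 0.0516), with DESeq2 (0.0867), with no filter (0.0684), in a fit of only the 6 libraries compared (0.0806), and on leaving out control replicate 1 (0.0573), 2 (0.0590) or 3 (0.0578), IL-1β replicate 1 (0.127) or 2 (0.154), or IL-1β + SFRP5 replicate 1 (0.0513) or 3 (0.216).

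The remaining family gene, Tcf7l1, encodes TCF3, a factor known chiefly as a repressor. It fell from 40.9 ± 0.496 to 22.1 ± 2.37 CPM with IL-1β (−0.89 ± 0.07, adjusted p = 1.95e-11) and was higher with SFRP5, at 31.5 ± 1.18 CPM (0.51 ± 0.07 against IL-1β alone, adjusted p = 6.05e-06). Per kilobase of the table's gene length, the summed level of the family was 14.5 ± 0.119 CPM per kb in control, 6.83 ± 0.569 with IL-1β and 9.44 ± 0.465 with SFRP5 added. The makeup of the family changed as well. Lef1 supplied 7.27% ± 1.15 of the summed level per kb in control cells, 0.791% ± 0.238 with IL-1β and 0.904% ± 0.203 with SFRP5 added. Tcf7l1 supplied 71.7% ± 1.29, 82.5% ± 2.69 and 85.0% ± 1.94 in the same order, and Tcf7l2 16.2% ± 0.319, 12.9% ± 1.76 and 11.5% ± 1.01. Tcf7 supplied 4.87% ± 0.999, 3.75% ± 0.704 and 2.51% ± 1.06. These shares are descriptions, with no test, and they depend on the gene lengths used. By CPM without length, the shares in the same order were 12.7%, 1.52% and 1.76% for Lef1 and 55.9%, 70.9% and 73.9% for Tcf7l1. They were 28.5%, 25.1% and 22.7% for Tcf7l2, and 2.92%, 2.47% and 1.67% for Tcf7.

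**Figure D2:**
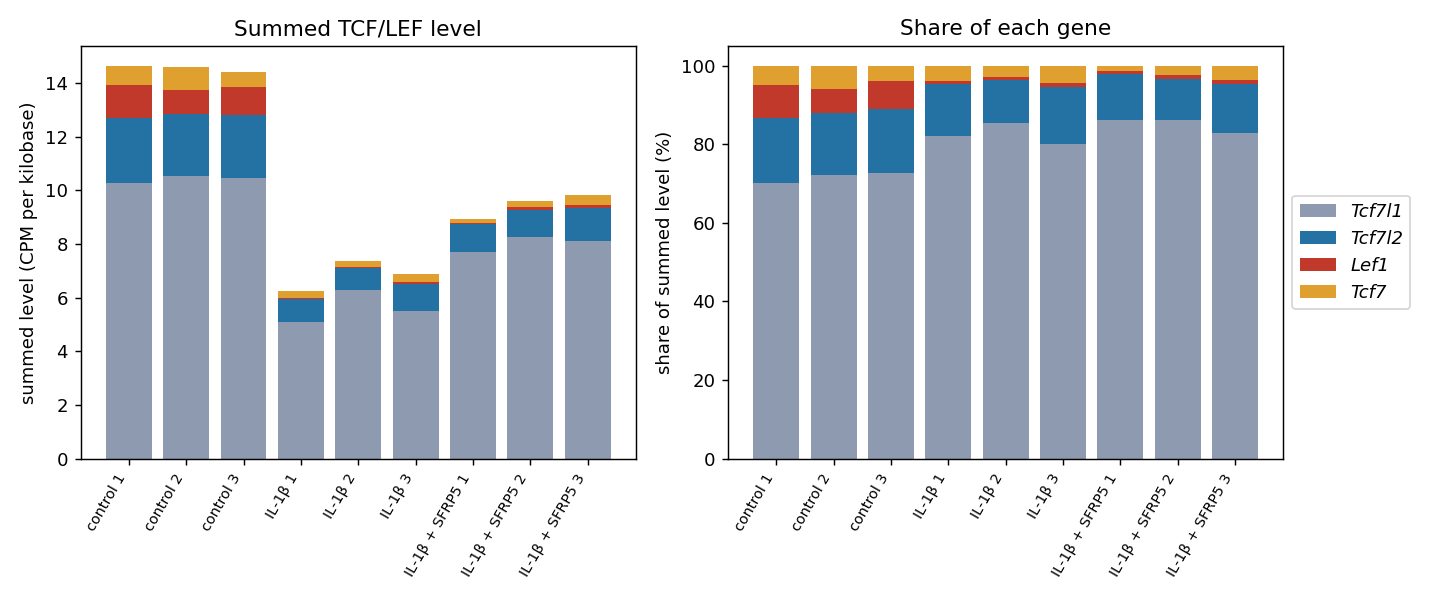
Stacked bars for each of the 9 libraries, with the level of Tcf7l1, Tcf7l2, Lef1 and Tcf7 in CPM per kilobase on the left and the share of each in their sum, in percent, on the right. The mean summed level drops from 14.5 to 6.83 CPM per kb with IL-1β and stands at 9.44 with SFRP5 added. The mean Lef1 share of this per-kilobase sum goes from 7.27% to under 1% in both treated groups.

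Promoter sequences are shown for Lef1 and Tcf7l2, factors that fell with IL-1β, and for Axin2, the feedback gene that rose with IL-1β and was lower with SFRP5. They let the reader see where the short TCF/LEF recognition letters lie in each. Each window runs 5′ to 3′ on the gene's strand from 250 bases before to 50 after its most upstream RefSeq start, on GRCm38.p6, and capitals mark the core letters CTTTG or, on the other strand, CAAAG. The windows are chr3:131110047-131110346 on the plus strand for Lef1, chr19:55741560-55741859 on the plus strand for Tcf7l2, and chr11:108920099-108920398 on the plus strand for Axin2.
Lef1: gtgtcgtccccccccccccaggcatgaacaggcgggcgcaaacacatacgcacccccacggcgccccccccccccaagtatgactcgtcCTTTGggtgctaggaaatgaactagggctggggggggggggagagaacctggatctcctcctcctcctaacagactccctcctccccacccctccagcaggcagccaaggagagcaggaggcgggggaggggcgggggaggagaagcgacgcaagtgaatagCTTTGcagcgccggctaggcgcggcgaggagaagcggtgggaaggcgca
Tcf7l2: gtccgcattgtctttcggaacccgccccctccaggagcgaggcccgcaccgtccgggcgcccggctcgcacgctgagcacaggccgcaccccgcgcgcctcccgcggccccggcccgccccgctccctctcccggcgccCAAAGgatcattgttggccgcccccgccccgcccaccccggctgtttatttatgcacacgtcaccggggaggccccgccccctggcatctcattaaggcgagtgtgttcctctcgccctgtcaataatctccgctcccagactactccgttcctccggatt
Axin2: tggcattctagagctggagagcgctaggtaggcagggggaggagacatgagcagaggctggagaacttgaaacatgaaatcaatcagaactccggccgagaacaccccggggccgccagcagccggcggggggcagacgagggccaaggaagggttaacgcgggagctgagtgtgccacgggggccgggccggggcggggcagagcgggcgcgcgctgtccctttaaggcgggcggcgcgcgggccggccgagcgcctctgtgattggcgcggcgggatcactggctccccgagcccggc
The Lef1 window held CTTTG at 2 places, starting 161 bases before the first base of the transcript and 1 base after it. The Tcf7l2 window held CAAAG at 1 place, starting 111 bases before the first base of the transcript. The Axin2 window held neither. Windows of 6 of the 10 genes were matched in the promoter table used here, and those of Ctnnb1, Tcf7 and Nkd2 at their most upstream start held neither form. Promoters of Apc, Axin1, Myc and Znrf3 were not analysed here. The core is short and occurs on either strand in 53.9% of all 32851 windows, and the longer form CTTTGAT or ATCAAAG, which overlaps it, occurs in 3.73% of them and in 0 of the 12 windows listed for these genes. A match is a description of the letters, and its absence from these windows says nothing of sites elsewhere.

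Most of the listed nuclear partners of β-catenin and TCF/LEF also went down with IL-1β. The list counts Tcf7l1 again, among its falls with IL-1β and its higher genes with SFRP5. Its IL-1β median is the value of Tcf7l1 itself. Of 19 genes tested 16 fell, 2 rose and 1 was not called, and the median log2 change was −0.887 beside −0.0325 for all tested genes, of which 38.5% were called higher and 40.4% lower. The falls covered corepressors and coactivators alike. Tle2 and Tle4, of the Groucho corepressor family, went from 11.2 ± 1.84 to 1.88 ± 0.211 CPM and from 4.48 ± 0.296 to 1.04 ± 0.432 CPM. Bcl9, which ties β-catenin to its coactivators, went from 45.0 ± 0.744 to 12.8 ± 0.744 CPM, and Tbl1xr1, an exchange factor for corepressors, from 123.9 ± 3.91 to 40.9 ± 2.93 CPM. The rises were in Cdc73, a part of the PAF1 complex (0.62 ± 0.05), and in the histone acetyltransferase gene Crebbp (0.18 ± 0.07, adjusted p = 0.0231), which was not called with upper-quartile factors (0.03) and had the opposite sign, not called, with library size alone (−0.07). With SFRP5 present, 8 of the 19 were higher than with IL-1β alone, 1 was lower and 10 were not called, with a median of 0.131 beside 0.0127 for all tested genes, of which 15.6% were higher and 15.7% lower. The higher genes included Tle2 (0.69 ± 0.22, adjusted p = 0.0164), Bcl9l (0.48 ± 0.05, adjusted p = 2.34e-08) and Ctnnbip1, an inhibitor that keeps β-catenin from TCF (0.41 ± 0.11, adjusted p = 0.00383), while Cdc73 was lower (−0.14 ± 0.05). Upper-quartile factors gave 9 higher and 0 lower, and library size alone 10 higher and 0 lower, so the Cdc73 call was lost with both.

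The feedback inhibitors moved apart from each other. Axin2 (ENSMUSG00000000142), the inducible relative of Axin1, was a low transcript with 29, 26 and 42 counts in the control libraries (1.46, 1.17 and 2.13 CPM), 62, 34 and 58 with IL-1β (3.77, 2.06 and 3.30 CPM) and 26, 29 and 29 with SFRP5 added (1.28, 1.89 and 1.71 CPM). IL-1β replicate 2 was close to the highest control library, the other IL-1β libraries stood above it, and the libraries with SFRP5 all lay below the IL-1β group and among the controls. The rise after IL-1β was 0.94 ± 0.28 (adjusted p = 0.00359), 1.92-fold. It stayed called in all 18 alternative analyses, with values from 0.70 to 1.20. With SFRP5 the transcript was 1.89-fold lower than with IL-1β alone (−0.92 ± 0.29, adjusted p = 0.0157), with an interval from −1.51 to −0.33. Against control it differed by 0.02 ± 0.30 (adjusted p = 0.944), with an interval from −0.60 to 0.65 that does not show equal levels. The SFRP5 call rested on few counts and was lost without IL-1β replicate 1 (−0.74, adjusted p = 0.0908), without IL-1β replicate 3 (−0.85, 0.0517) and without IL-1β + SFRP5 replicate 1 (−0.76, 0.0854).

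Znrf3 (ENSMUSG00000041961), a membrane ubiquitin ligase that removes Frizzled receptors from the cell surface, fell with IL-1β where Axin2 rose. It had 17.4, 18.4 and 17.0 CPM in control, 6.93, 8.11 and 6.66 CPM after IL-1β, and 8.88, 9.17 and 7.79 CPM with SFRP5 added. Control libraries were well above all treated libraries, and the treated groups overlapped by 1 library on each side. The change was −1.28 ± 0.11 after IL-1β (adjusted p = 6.51e-11). The SFRP5 difference of 0.25 ± 0.12 was not called (adjusted p = 0.119), with an interval from 0.00385 to 0.50, and it was called with library size alone (0.33, adjusted p = 0.0333). Its close relative Rnf43 was too low to be tested, with 10, 30 and 20 counts over the control, IL-1β and IL-1β + SFRP5 groups.

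Nkd2 (ENSMUSG00000021567), which binds Dishevelled and dampens the pathway, was the lowest of the 10 transcripts per kilobase in control cells. It had 5, 9 and 7 counts in control (0.253, 0.406 and 0.355 CPM), 13, 15 and 11 with IL-1β (0.790, 0.908 and 0.626 CPM) and 11, 7 and 12 with SFRP5 added (0.542, 0.455 and 0.708 CPM). The control libraries lay below all treated libraries. The rise with IL-1β was 1.17 ± 0.45 (adjusted p = 0.0200), and it was lost with library size alone (0.93, adjusted p = 0.0604), with no filter (0.0503), without control replicate 1 (0.0775) and without IL-1β replicate 2 (0.0709). The difference with SFRP5 was −0.43 ± 0.42 (adjusted p = 0.478), with an interval from −1.30 to 0.43. Its relative Nkd1 went the other way, from 18.3 ± 0.863 CPM and 1130 counts in control to 0.779 ± 0.392 CPM and 39 counts with IL-1β (−4.55 ± 0.21, adjusted p = 2.03e-16). With SFRP5 added it was at 0.721 ± 0.280 CPM and the difference from IL-1β alone was not called (−0.13 ± 0.37, adjusted p = 0.833).

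Other feedback genes and targets of the pathway split in both directions. The list also holds R-spondin genes such as Rspo2 and the R-spondin receptor gene Lgr4. Its counts are therefore not counts of feedback genes and targets alone. Of 22 genes, Rnf43, Rspo1, Rspo4 and Sp5 were too low to be tested, and of the 18 tested ones 6 rose with IL-1β, 11 fell and 1 was not called, with a median of −1.6. Over all tested genes 38.5% were called higher and 40.4% lower, with a median of −0.0325. Those that fell included the receptor gene Lgr5, with 128 counts in control and 2 with IL-1β, a ratio of levels of 52.5 with a 95% counting interval from 14.2 to 438. Bambi, Dact1 and Notum, which restrain TGF-β or Wnt signalling, fell by log2 changes of −3.54, −3.15 and −2.63, and the cell cycle gene Ccnd1 by −3.03. Those that rose were Fosl1 (4.70 ± 0.07), Cd44 (4.48 ± 0.04), Ppard (2.78 ± 0.05), Dact2 (2.44 ± 0.51), Jun (1.90 ± 0.08) and Lgr6 (1.34 ± 0.23). Fosl1 and Jun encode subunits of the transcription factor AP-1. With SFRP5, 4 of the 18 were higher than with IL-1β alone, 5 were lower and 9 were not called, with a median of −0.00209, and with library size alone 5 were higher and 4 lower. In that comparison 15.6% of all tested genes were called higher and 15.7% lower, with a median of 0.0127. Cd44, a hyaluronan receptor, went from 1625 ± 31.7 to 738 ± 16.9 CPM (−1.14 ± 0.03, adjusted p = 1.06e-18) and Jun from 186 ± 28.7 to 121 ± 4.81 CPM. Higher were Dact1 at 5.16 ± 0.169 against 2.26 ± 0.318 CPM, Rspo2, an R-spondin that strengthens Wnt signals, at 7.53 ± 0.459 against 3.60 ± 0.142 CPM, Lgr4, an R-spondin receptor, at 32.2 ± 0.258 against 22.2 ± 1.43 CPM, and Ccnd1 at 29.0 ± 2.40 against 22.2 ± 1.29 CPM.

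**Figure D3:**
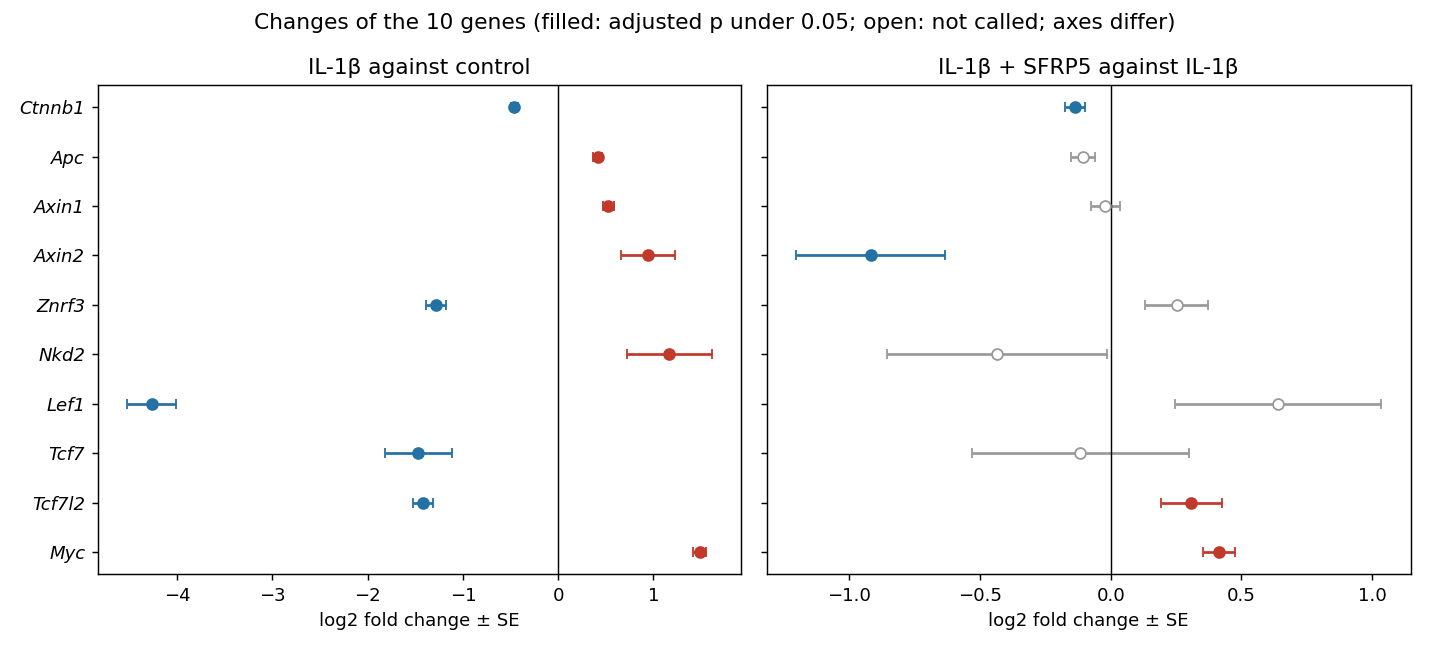
Log2 change ± SE of each of the 10 genes for IL-1β against control (left) and for SFRP5 added to IL-1β against IL-1β alone (right), on axes of different range. Filled points are called at an adjusted p under 0.05 and open points are not. Lef1 lies farthest from 0 on the left at −4.27, Myc is above 0 in both panels, and Axin2 is at 0.94 on the left and −0.92 on the right.

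Myc (ENSMUSG00000022346), a growth-promoting transcription factor and a classic TCF/β-catenin target that answers to many other signals too, rose with IL-1β and was higher again with SFRP5 added. It was at 30.3, 30.2 and 33.4 CPM in control, 87.7, 97.6 and 77.8 CPM after IL-1β, and 116.3, 111.6 and 122.3 CPM with IL-1β and SFRP5. The 3 groups did not overlap, and SFRP5 moved the transcript further from control. The change was 1.49 ± 0.07 with IL-1β (adjusted p = 1.67e-16), 0.41 ± 0.06 for SFRP5 added to IL-1β (adjusted p = 8.02e-06, interval 0.29 to 0.54), and 1.90 ± 0.07 for both against control (adjusted p = 6.91e-19), or 2.80-fold, 1.33-fold and 3.74-fold. The SFRP5 step was called in all 18 alternative analyses, with values from 0.34 to 0.50.

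The MYC protein acts in pairs with MAX, and MAX also pairs with the MXD proteins and MXI1, which oppose MYC. Of 12 tested genes of this network (Mycn was too low) 8 rose with IL-1β, 3 fell and 1 was not called, with a median of 0.568 (7 and 3 with library size alone). The same figures over all tested genes were 38.5% higher, 40.4% lower and a median of −0.0325. The antagonists diverged, since Mxi1 rose from 14.6 ± 1.07 to 156 ± 8.13 CPM and Mxd1 by 1.56 ± 0.08, while Mxd4 fell from 154.5 ± 2.66 to 12.0 ± 0.0724 CPM and Mxd3 by a log2 change of −1.07 ± 0.17. Max rose from 58.1 ± 3.61 to 97.5 ± 5.43 CPM (0.75 ± 0.05), and Fbxw7, which targets MYC for degradation, fell (−0.37 ± 0.09). With SFRP5, 2 of the 12 were higher than with IL-1β alone, 3 were lower and 7 were not called, with a median of 0.0368 (0.0127 over all tested genes, 15.6% of them higher and 15.7% lower), and with library size alone 4 were higher and 1 lower. Mxd4 was at 30.3 ± 4.73 CPM (1.33 ± 0.09, adjusted p = 5.35e-12) and Mxd1 at 17.6 ± 0.0150 against 26.5 ± 0.557 CPM (−0.60 ± 0.08, adjusted p = 1.17e-06). The 6 proliferation markers examined summed to 445 to 465 CPM in control, 97.7 to 105 with IL-1β and 109 to 122 with SFRP5 added. Of the 6, Mki67, Top2a, Ccna2, Ccnb1 and Cdk1 were lower in both treated groups than in control, as Mki67 shows with 148, 6.53 and 15.3 CPM, whereas Pcna was higher, at 50.5, 81.1 and 78.6 CPM. Their part in the Myc and Ccnd1 results was not tested.

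β-Catenin also links cadherins to the cytoskeleton, and its partners at adherens junctions were all called after IL-1β, 6 of 10 tested genes higher and 4 lower, with a median of 0.438 (Cdh1 was too low). Over all tested genes 38.5% were called higher and 40.4% lower, with a median of −0.0325. The list's share called lower is near that background and its share called higher lies above it, though 10 genes are few. With library size alone or upper-quartile factors, 5 were higher and 4 lower. Cdh2, N-cadherin, rose from 17.5 ± 0.606 to 143 ± 10.1 CPM, and Jup, or plakoglobin, the nearest relative of β-catenin, fell from 12.8 ± 0.117 to 1.71 ± 0.377 CPM (−2.90 ± 0.18, adjusted p = 7.31e-14). P-cadherin, Cdh3, had 236 counts in control and 2 with IL-1β, a ratio of 96.8 (95% counting interval 26.5 to 804). The endothelial cadherin gene Cdh5 went the other way, with 1 and 87 counts, and the 7 endothelial markers, Cdh5 included, summed to 0.768 to 1.11 CPM in control, 3.75 to 4.68 with IL-1β and 2.54 to 3.64 with SFRP5 added. Of these, Emcn and Cldn5 had no count in any library. In the control, IL-1β and IL-1β + SFRP5 groups, Tek was at 0.294, 1.35 and 1.80 CPM and Pecam1 at 0.0828, 0.590 and 0.225 CPM. Kdr was at 0.047, 0.121 and 0 CPM, and Vwf at 0.456, 0.379 and 0.393 CPM. The part of endothelial cells in the Cdh5 result was not tested. With SFRP5, 3 of the 10 were higher than with IL-1β alone, 3 were lower and 4 were not called, with a median of −0.0704, where 15.6% of all tested genes were called higher and 15.7% lower, with a median of 0.0127. Library size alone gave 3 higher and 2 lower, and a list median of the opposite sign, 0.0103. Jup was at 3.02 ± 0.582 CPM (0.81 ± 0.22, adjusted p = 0.00540), and Vcl, encoding vinculin, went from 218 ± 4.37 to 160.5 ± 7.16 CPM (−0.44 ± 0.04, adjusted p = 6.25e-09).

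**Figure D4:**
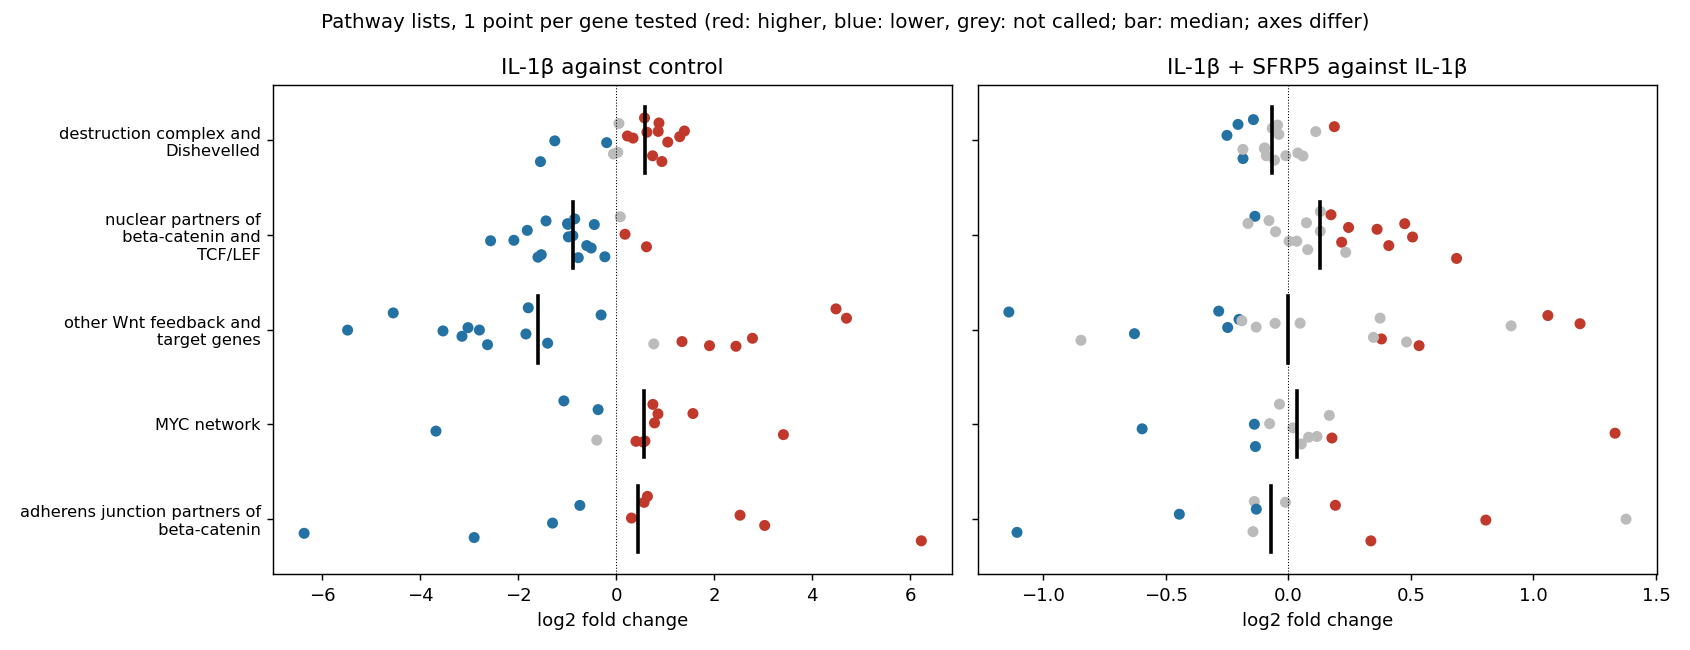
Log2 changes of the tested genes in the 5 lists around the 10 genes (destruction complex and Dishevelled, nuclear partners, other feedback and target genes, MYC network, adherens junction partners), 1 point per gene and a bar at each list's median, for IL-1β against control (left) and SFRP5 added to IL-1β against IL-1β alone (right), on axes of different range. Red points are called higher, blue lower, and grey points are not called. After IL-1β the destruction complex list has a median of 0.576 and the nuclear partner list one of −0.887, and with SFRP5 added the medians lie between −0.0704 and 0.131.

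Cells with IL-1β and SFRP5 still differed from control cells for most of these genes, by unlike amounts. The median absolute log2 change was 0.882 for the 10 genes and 0.677 for all tested genes. Apc, Axin1 and Myc were higher than control, Ctnnb1, Lef1, Tcf7, Tcf7l2 and Znrf3 were lower, and Axin2 and Nkd2 were not called. Of all tested genes 37.3% were called higher and 39% lower in this comparison, and 78.2% had libraries that did not overlap, as did 9 of the 10 genes. The comparison shares its control libraries with that of IL-1β against control and its treated libraries with that of SFRP5 added to IL-1β, so the 3 sets of values are not independent. Set side by side, the changes from control without and with SFRP5 were −0.46 and −0.60 for Ctnnb1, 0.42 and 0.31 for Apc, and 0.53 and 0.51 for Axin1. For the nuclear factors they were −4.27 and −3.63 for Lef1, −1.47 and −1.59 for Tcf7, and −1.42 and −1.11 for Tcf7l2. For the feedback genes they were 0.94 and 0.02 for Axin2, −1.28 and −1.03 for Znrf3, and 1.17 and 0.73 for Nkd2. The Nkd2 difference with SFRP5 was not called (adjusted p = 0.157), with an interval from −0.23 to 1.70.

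Per kilobase of gene length, the order of the transcript levels in control cells ran from Ctnnb1 at 126 ± 2.52 CPM per kb through Myc at 11.5 ± 0.665, Axin1 at 10.5 ± 0.721, Apc at 5.34 ± 0.206, Tcf7l2 at 2.35 ± 0.0532, Znrf3 at 2.23 ± 0.0895, Lef1 at 1.06 ± 0.171, Tcf7 at 0.709 ± 0.149 and Axin2 at 0.289 ± 0.0893 to Nkd2 at 0.0701 ± 0.0162. Tcf7l2 and Znrf3 overlapped, and Myc and Axin1 were close. With IL-1β, Lef1 went from above Tcf7, Axin2 and Nkd2 to the last place, at 0.0537 ± 0.0156 CPM per kb, and Myc stood apart from Axin1, at 32.3 ± 3.65 and 15.2 ± 0.344. With SFRP5 added, Ctnnb1 was at 83.5 ± 3.71 and Myc at 43.0 ± 1.97 CPM per kb. In that group Tcf7l2 and Znrf3 overlapped at 1.09 ± 0.119 and 1.09 ± 0.0923, and so did Axin2 and Tcf7 at 0.295 ± 0.0565 and 0.240 ± 0.111.

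The genes most like Ctnnb1 over the 9 libraries, by Pearson correlation of log2 CPM, were Ankrd52 (0.996, with group means of 86.3, 48.0 and 40.5 CPM), Rsph1, H1f0, Myef2 and Gxylt2 (0.995 for each). For Axin2 they included Tmem87a (0.962, with 43.0, 49.4 and 43.5 CPM), Cox8a (0.941), Gm43791 (0.927) and Stat2 (0.925, with 14.2, 17.7 and 13.5 CPM). The 9 points share their 3 groups and their library sizes, and the correlations are descriptions. Several of the low genes have neighbours on the opposite strand in the table, and reads of a gene and its antisense partner cannot be told apart where the strand setting of the counting is unknown. Over all 9 libraries, 35 counts lay in Lef1os1 against 632 in Lef1, and 10 in A630014C17Rik against 209 in Tcf7. Gm11670 held 6 against 335 in Axin2, and Ulk4 1101 against 87420 in Ctnnb1. Most Lef1 counts were in control libraries, with 569 there, 24 with IL-1β and 39 with SFRP5 added. Counts of the neighbours are given only as totals, so their weight in the treated groups is not known.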

How the data were processed

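RNA from 9 libraries of cultured mouse chondrocytes was sequenced as paired ends. Per the labels' protocols and the submitters' processing notes, the authors trimmed reads with fastp, aligned them with STAR to mouse mm10 and quantified them with RSEM. The deposited values are whole-number counts per gene, not scaled between libraries. The strand setting and the annotation are not given in the sources used here. Reads that match near-identical genes can be split among them by RSEM.

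Counts were analysed with edgeR 4.0.16 (limma 3.58.1, R 4.3.3). Genes were filtered with filterByExpr by group, TMM factors were used, and 1 quasi-likelihood fit was made over all 9 libraries. The p-values of each comparison were adjusted by the Benjamini-Hochberg method over 15502 genes, and calls were made at an adjusted p under 0.05. The SE is the log2 change divided by the square root of its F statistic, and intervals are 95%. Floors and counting intervals cover counting error only. DESeq2 1.42.0 was an alternative, and the fit was tested on simulated data. Levels per kb use the deposited gene length. The table's gene positions had the start and end of a GRCm38 annotation for 0 of 10 members, so no coordinates were taken from it. Promoters are from RefSeq. Members and gene lists were chosen with earlier results of these data known. From each list the named genes are, per comparison, drawn from the 4 called ones with the largest change, those against the list's majority, and Tcf7l1, Gsk3b, Nkd1 and Rnf43 always. Further named list members were chosen after their values were seen. One gene of the most alike to Axin2 is not reported here.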

Additional observations from a re-analysis of the deposited data

How the results depend on the processing

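After IL-1β, 9 or 10 of the 10 genes were called under each alternative, and with IL-1β and SFRP5 against control 8 were called under all of them. For SFRP5 added to IL-1β, 4 genes were called, and leaving out 1 library at a time gave 2 to 3. Differences near 0 changed sign. With library size alone, the Axin1 difference for SFRP5 added to IL-1β was 0.0609, and the Axin2 difference for both treatments against control was −0.14, or −0.11 with upper-quartile factors. These settings moved the median of all genes by about as much, by 0.0808 for SFRP5 added to IL-1β with library size alone, and against control by −0.164 with library size alone and −0.134 with upper-quartile factors. Leaving out 1 library at a time, that Axin1 difference ran from −0.0428 to 0.0210, that of Tcf7 for SFRP5 added to IL-1β from −0.51 to 0.21, and that of Axin2 against control from −0.16 to 0.29, and none of these was called. The fit with the replicate number as a block called 10, 4 and 8 of the 10 genes in the comparisons of IL-1β against control, SFRP5 added to IL-1β, and both against control, the same numbers as without the block, and 12151, 4780 and 11761 of all genes, beside 12227, 4858 and 11828 without it. Deviations of libraries with the same number correlated by −0.0364 to 0.0402, and those of libraries with different numbers by −0.0388 to 0.0554. With so few libraries, and a spread that may be technical, this cannot settle whether libraries with the same number share a mouse, culture or batch. DESeq2 called 11837, 4295 and 11434 genes. Depth limits Lef1, Tcf7, Axin2 and Nkd2, whose treated libraries held few counts. Differences that were not called there may be too small to detect at this depth.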
